A study of Mus musculus with 2 samples.

Results

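The Myc and Max network is a family of transcription factors with basic helix-loop-helix leucine zipper domains, and it was examined here as 10 genes chosen by name: Myc, Mycn, Mycl, Max, Mxd1, Mxd3, Mxd4, Mnt, Mga and Mlx. These were set among the 21887 protein-coding nuclear genes of the RefSeq table for mouse GRCm38.p6, and all 10 were found in it. Chromatin immunoprecipitation with sequencing (ChIP-seq) recovers and maps the DNA to which a chosen protein is bound. The data were the peak calls of 1 Myc-Tag ChIP library and 1 input library (chromatin without antibody enrichment) from a T-cell lymphoma of Lck-Dlx5 mice. In these mice the Lck promoter, active in thymocytes, drives the homeobox factor Dlx5 fused to a Myc-Tag, a short peptide derived from the MYC protein. The intended target of the immunoprecipitation is therefore the tagged Dlx5, and the name of the tag does not make this a ChIP of Myc. Whether the tag antibody also captured Myc itself was not tested.

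Both samples carry the transgene, and the labels give neither treatment nor age. The labels describe primary tumors, with the strain written C57BL/6 for the ChIP and C57BL/7 for the input, whereas the methods name 1 Lck-Dlx5 cell line and an IgG control. With 1 library of each kind, the sample and the condition cannot be told apart, and no test between conditions was made. The Myc-Tag library had 3477 intervals with a median width of 752 bp, and the input had 28. Each interval has a summit whose height is a score of unstated normalization, with a median of 16, quartiles of 13 and 19, and a range from 9 to 301. Read totals were not used, which leaves the depth unknown, and a gene without an interval is one at which none was called. A peak list holds no expression, so the T-cell label could not be checked against markers. An interval lay within 10 kb of 5 of 9 T-cell marker genes (95% Wilson interval 26.7% to 81.1%), 3 of 4 B-cell marker genes (30.1% to 95.4%) and 0 of 4 myeloid marker genes (0% to 49%), against 19% of all protein-coding genes.

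In the network, Max is the shared partner. Myc, Mycn and Mycl dimerize with Max and activate transcription at the E-box CACGTG, whereas Mxd1, Mxd3, Mxd4, Mxi1, Mnt and Mga compete for Max and mostly repress. Mlx pairs with some of the same repressors and with the glucose-responsive factors Mlxip and Mlxipl. In T-cell leukemia, MYC is a well-known target of Notch signaling, and in developing thymocytes Myc drives growth and division.

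A gene was counted when any Myc-Tag interval touched the gene or lay within 10 kb of it. By this rule 2 of the 10 network genes had a Myc-Tag interval, Mga and Mxd3 (20%, 95% Wilson interval 5.67 to 51.0). Over all protein-coding genes the share was 19%, so the network stood near the background. Within 1 kb of the gene body the count was 1, at 14.2% of all genes. With heights at or above the median of 16 it was 1, Mxd3, at 10.7%, and with heights of at least 19 it was 0, at 6.05%. In the Mga case the interval lay inside the gene, and in the Mxd3 case it lay outside, over other genes. Neither interval was called in the input. The other 8 genes, Myc itself among them, had none. No summit lay within 1 kb of an end of any of the 10 genes, where 10.8% of all protein-coding genes had one. The count was also 0 within 500 bp (9.04% of all genes), 0 within 1 kb at heights of at least the median (5.68%), and 0 of 9 within 1 kb of a start in the RefSeq promoter table (11.4%). The Wilson interval for 0 of 10 reaches 27.8%, so this count also does not stand apart from the background. These intervals, like all of those below, cover counting error only.

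**Figure D1:**
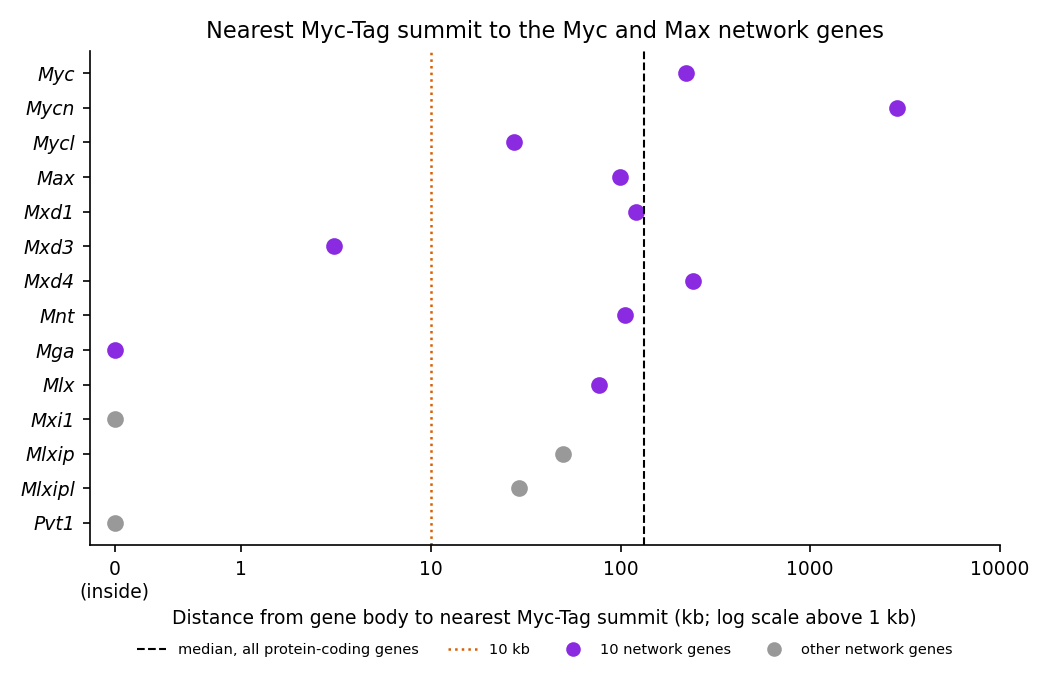
Distance in kb from each gene body to the nearest Myc-Tag summit (log scale above 1 kb, 0 for a summit inside the gene), with 1 point per gene: the 10 network genes in purple, 4 further network genes in grey. Mga lies at 0 and Mxd3 at 3.07 kb, left of the dotted line at 10 kb, and Myc, Mycn and Mxd4 lie right of the dashed line, the median of 133.7 kb over all protein-coding genes.

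Of the activating Myc genes, none had an interval within 10 kb. Myc spans chr15:61985341-61990361, and the nearest Myc-Tag summit was 222 kb away. Of all protein-coding genes, 40.2% were as far or farther from a summit. Mycn, which is used mainly in embryonic and neural tissue, lies at chr12:12936093-12941836 and was 2.88 Mb from the nearest summit, with 4.66% of genes as far or farther. Mycl (chr4:122995588-123002490), the third member of the family, was the closest of these genes, 27.3 kb from a summit of height 11, a low height in this library. The Myc family thus ran from a gene with a summit in its wider neighbourhood to the most isolated of the 10 genes.

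Max, the obligate partner of Myc, spans chr12:76937269-76962323. Its nearest summit, of height 16, was 99.7 kb away, and 55.5% of protein-coding genes were as far or farther. Mlx, the Max-like protein of the glucose-responsive branch, lies at chr11:101086707-101092207 and was 77.3 kb from a summit of height 16, with 60.1% of genes as far or farther. Both partner genes were therefore at distances ordinary for this library.

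Mga encodes the largest protein of the network, a repressor with a T-box domain besides its helix-loop-helix region, and it is a subunit of a variant Polycomb complex. It was the only one of the 10 genes with an interval in its body, where 13.4% of all protein-coding genes had one. The interval, chr2:119898017-119898541, was 525 bp wide and lay inside the gene, which spans chr2:119872503-119970129. The summit at 119898336 was 1108 bp downstream of the Mga transcription start listed in the promoter table (119897228, plus strand). The RefSeq gene body begins upstream of that start, so the summit was 25833 bp from the nearest end of the gene. Whether the interval is exonic or intronic was not analysed here. Its height was 13, and 70.9% of all Myc-Tag summits were taller.

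Mxd3, a repressor expressed chiefly in dividing cells, spans chr13:55325170-55329900. The interval counted for it, chr13:55321511-55322457, was 947 bp wide and had a summit of height 17 at 55322096, with 33.9% of summits taller. That summit was 3074 bp outside the gene, on its downstream side and 7635 bp from the Mxd3 start at 55329731. It lay instead over the starts of 2 neighbouring genes that are transcribed away from each other. Prelid1, which carries phosphatidic acid between mitochondrial membranes, spans chr13:55322055-55325272, and the summit was 41 bp from its lower end. Rab24, a small GTPase of the Rab family, spans chr13:55319223-55321980, with the summit 116 bp from its upper end. The interval overlapped both of these genes and no part of Mxd3. When each interval was given to its nearest protein-coding gene, Mga alone of the 10 kept one, at a background of 13.2%.

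**Figure D2:**
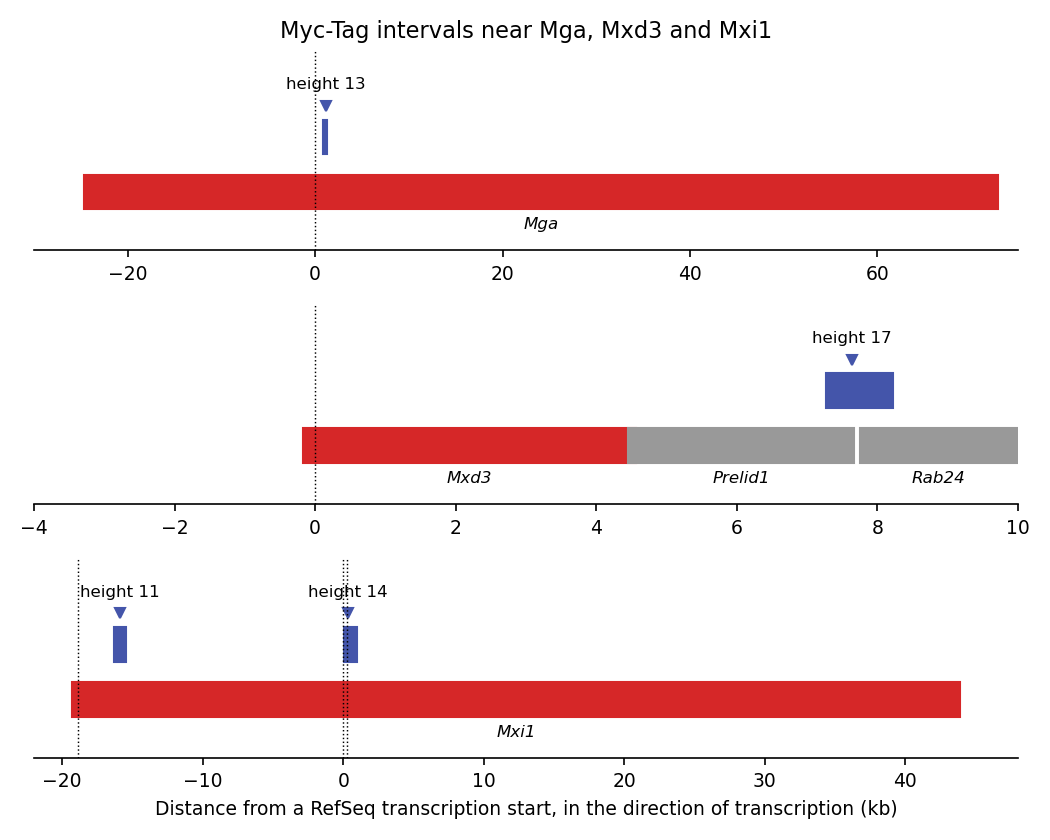
Gene bodies (red for network genes, grey for neighbours) and Myc-Tag intervals (blue bars, triangles at summits, with heights) against distance in kb from a RefSeq start (dotted lines), in the direction of transcription of the named network gene. The Mga summit lies 1108 bp past a start within the gene, the interval near Mxd3 lies 7635 bp from the Mxd3 start over Prelid1 and Rab24, and Mxi1 has 2 intervals.

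The remaining repressors had no interval within 10 kb. Mxd1 (chr6:86647044-86669234), which is known to rise as cells leave the cycle, was 121 kb from a summit of height 20. For Mxd4 (chr5:34176580-34187710) the distance was 240 kb, to a summit of height 15. Mnt (chr11:74830806-74845725), the most widely expressed Max-dependent repressor, was 106 kb from a summit of height 17. The shares of protein-coding genes as far or farther were 52.0%, 38.8% and 54.3% for Mxd1, Mxd4 and Mnt. Across all 10 genes the median distance was 103 kb, against 133.7 kb over all protein-coding genes.

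The setting of each gene was described by the gap between the summits that flank it. The median gap on the autosomes was 190.8 kb. Mycn lay in the widest gap of the network, 6.79 Mb, which held 15 protein-coding genes, Mycn included. Of 3434 autosomal gaps, 27 were wider. Myc followed with a gap of 2.56 Mb that held 5 protein-coding genes, and 258 autosomal gaps were wider. On chromosome 15 itself, where the median gap was 106.7 kb, 5 of 262 gaps exceeded it. The gap around Max was 1.37 Mb, with 472 autosomal gaps wider and 2 protein-coding genes wholly inside. The Mlx gap was narrower, 0.433 Mb, yet held 26 protein-coding genes. Gaps around Mxd1, Mxd4, Mnt, Mycl and Mxd3 measured 0.978, 0.724, 0.705, 0.314 and 0.142 Mb. Of the gaps given here, only that of Mxd3 was below the autosomal median, with 1937 autosomal gaps wider. The genes thus sat in stretches that differ widely in gene content, from gene-poor around Max to gene-dense around Mlx.

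The Myc locus was followed farther out, because regulatory elements of Myc are known to lie far from the gene, downstream through and beyond the noncoding gene Pvt1. The nearest summit lay in Pvt1, 222215 bp from Myc. Its interval, chr15:62212102-62212945, was 844 bp wide with a height of 13, and 70.9% of summits were taller. Pvt1 spans chr15:62037986-62260215, and the summit was 174590 bp from the Pvt1 end that faces Myc. Beyond Pvt1, the interval chr15:62885321-62886175 had a summit of height 23, at which 11.4% of summits were taller, 0.895 Mb from Myc. A further interval, chr15:63255104-63256380, had a summit of height 20, 1.27 Mb from Myc. Neither of these overlapped any gene of the table. Their nearest protein-coding gene was Gsdmc, a pore-forming gasdermin, at 0.89 and 0.52 Mb. The next summits on this side lay 2.01 and 2.07 Mb away in Cyrib, a Rac1-binding protein, with heights of 13 and 16.

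On the other side of Myc there was no summit for 2.34 Mb. The first, of height 20, belonged to an interval overlapping Trib1, a pseudokinase gene. The next, of heights 21, 16 and 23, lay 2.9, 2.9 and 3.01 Mb from Myc in or near Mtss1, an actin regulator. The fifth, of height 21, lay 3.1 Mb away in the ubiquitin ligase gene Rnf139. No interval among these 10 was a call of the input library, whose nearest summit on chromosome 15 was 13096519 bp from Myc. In T cells a Notch-responsive enhancer of Myc is known far downstream of the gene. No file used here gives its position, so whether one of these summits falls on it was not tested.

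**Figure D3:**
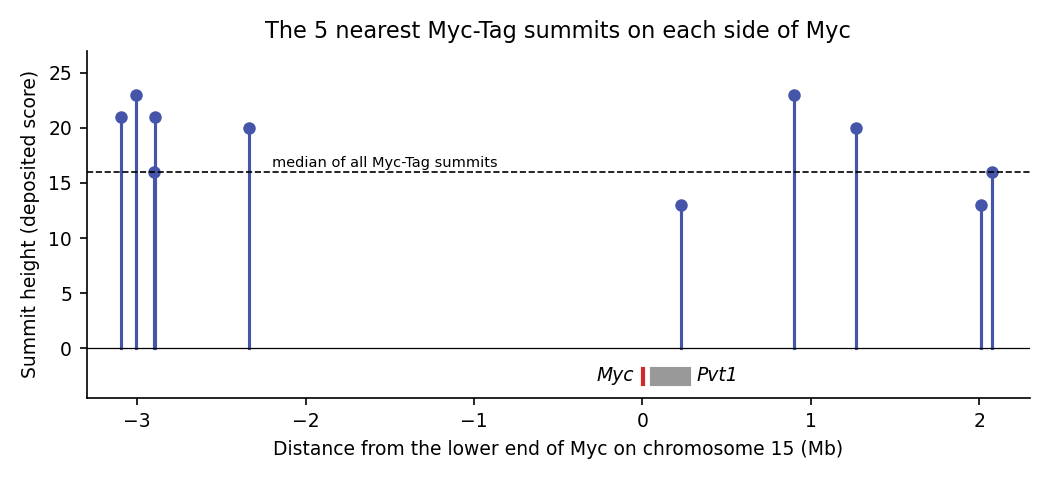
Heights (deposited score) of the 5 nearest Myc-Tag summits on each side of Myc against distance in Mb from the lower end of Myc on chromosome 15, with Myc in red and Pvt1 in grey. The dashed line is the library median of 16, the Pvt1 summit lies below it at 13, and the side below Myc is empty to 2.34 Mb.

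Within 1 Mb on either side of Myc there were 2 intervals, or 0.997 per Mb (exact 95% Poisson interval 0.121 to 3.6), and Myc was the only protein-coding gene there. Chromosome 15 as a whole had 2.53 intervals per Mb (2.23 to 2.86), and the other autosomes had 1.36 (1.32 to 1.41). The interval of the region includes both of these densities, so a difference was not detectable from 2 intervals. Within 2 Mb the density was 0.749 per Mb (0.154 to 2.19) from 3 intervals and 9 protein-coding genes, a range that includes the density of the other autosomes and ends under that of chromosome 15. This edge is narrow, since the next summit lay 2007383 bp from Myc, just outside the window. By the 10 kb rule, 36.7% of the protein-coding genes of chromosome 15 had an interval, and Myc was not among them. An extra chromosome 15 is known to recur in Lck-Dlx5 lymphomas. Copy number was not analysed here, and its part in these densities was not tested.

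The promoters were then read for the E-box, since several network genes are known to be regulated by Myc and Max themselves. RefSeq promoter windows for GRCm38.p6, from 250 bases before to 50 bases after a start, were matched for 9 of the 10 genes, and Myc was not matched. CACGTG, which reads the same on both strands, occurred in 4 of the 9 (44.4%, Wilson interval 18.9 to 73.3). Over all 32851 windows, 7.15% held it, and counted by gene 8.09% of 27025 genes did. With CACGCG admitted as a variant, the count was 6 of 9, at 15.4% of all windows. The network windows were richer in G and C, with a median of 64% against 52.7% over all windows. These shares were not matched for that content. The 4 network genes were Max, Mxd4, Mnt and Mlx. The sites are shown with 12 bases on either side, written 5′ to 3′ on the strand of the gene, with CACGTG in capitals, to let them be set beside the site at Prelid1, the only one of these that lay under an interval.
Max, chr12:76962234-76962263, minus strand: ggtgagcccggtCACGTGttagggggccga
Mxd4, chr5:34187912-34187941, minus strand: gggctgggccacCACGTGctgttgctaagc
Mnt, chr11:74830789-74830818, plus strand: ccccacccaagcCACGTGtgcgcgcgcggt
Mlx, chr11:101087238-101087267, plus strand: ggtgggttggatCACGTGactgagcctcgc
Prelid1, chr13:55321961-55321990, plus strand: gggacgcccggtCACGTGacgcgggcgccg

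The Max site began 3 bases before the start and ran across it. In Mlx, Mnt and Mxd4 it began 40, 123 and 219 bases before the start, and in Prelid1 82 bases before. None of the 9 network windows was overlapped by an interval, at a background of 7.25%, and the 4 genes with an E-box had no interval within 10 kb. Mga and Mxd3, the network genes counted as having an interval, had no CACGTG in their windows. A match of these letters is a description of the window and not a binding site.

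Dlx proteins bind a homeodomain motif with the core TAATT. It was searched on both strands as TAATT and AATTA, which overlap in TAATTA. None of the 9 network windows held it, and 27% of all windows did. The Wilson interval for 0 of 9 reaches 29.9%, so this count does not stand apart from all windows. The network promoters were rich in G and C, with a median of 64% and a range from 55% to 76.7%, against 52.7% over all windows. In the library as a whole, the windows overlapped by an interval were likewise GC-rich, with a median of 63.3%, and 14.1% of these 2383 windows held TAATT (12.7 to 15.5), against 28.0% of the 30468 others (27.5 to 28.6). CACGTG was found in 11.1% of the overlapped windows (9.88 to 12.4) and in 6.84% of the others (6.57 to 7.13), a ratio of 1.62. Of the 15 other palindromes of the same length with a central CG, 10 had a higher ratio, and their median was 2.07. By this ratio the letters of the E-box were not set apart from the other palindromes. These palindromes differ in G and C content and were not matched for it, so the ratio cannot tell the E-box from base composition.

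Among further genes of the network, Mxi1, a repressor of the same class as Mxd1, had 2 intervals. Mxi1 spans chr19:53310128-53373293. The interval chr19:53329459-53330416 had a summit of height 14, 65 bp past an Mxi1 start at 53329695 and 347 bp past another at 53329413. The other interval, chr19:53313120-53313923, had a summit of height 11, 2998 bp past the start at 53310506, and also overlapped the long noncoding RNA gene Gm30541. With 90.5% of summits taller than 11 and 59.9% taller than 14, both were below the library median. The Mxi1 windows at 53329413 and 53329695 were overlapped by the interval and held neither CACGTG nor TAATT. Mlxip and Mlxipl, the glucose-responsive partners of Mlx, were 49.9 and 29.1 kb from the nearest summit and had none within 10 kb. Mlxipl had a pair of promoter windows. The one at the start 135089890 held CACGTG 98 bases before the start and no TAATT. The one at 135106891 held no CACGTG, and the TAATT motif began 112, 35 and 34 bases before that start, with the matches at 35 and 34 overlapping. Of the 12 network genes with a promoter window, Mlxipl alone held TAATT.

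Cofactors and regulators of Myc were counted in the same way. Of 20 such genes, 7 had an interval within 10 kb (35.0%, Wilson interval 18.1 to 56.7), an interval that includes the 19% of all protein-coding genes. Zbtb17, which encodes the Myc-interacting factor Miz-1, had the tallest summit, of height 24. This summit was placed 1 bp outside the gene at its start, in an interval that also overlapped the gene Gm42337. Ccnt1, the cyclin of the elongation kinase P-TEFb, had a summit of height 19 at 280 bp past its start, and a summit of height 20 that lay 4546 bp outside it in Kansl2. Summits of height 16 lay 413 bp past the start of Ep400, a chromatin remodeler that Myc recruits, and 590 bp outside Fbxw7, whose ubiquitin ligase degrades Myc. The deacetylase gene Hdac2 had heights of 18 and 14, and Sin3a, the corepressor that Mxd proteins bind, had 2 summits of height 12. Hdac1 was counted through a summit of height 10 in Marcksl1, 1640 bp outside. A summit lay within 1 kb of an end in 5 of the 20 genes (25%, Wilson interval 11.2 to 46.9), with 10.8% over all genes. Within 1 kb of the gene body 6 of the 20 had an interval (30%, 14.5 to 51.9), with 14.2% over all genes. In both cases the background lay just below the interval. The background was also below it by further rules. Within 10 kb at heights of at least the median, 5 of 20 were counted (11.2 to 46.9, against 10.7%). A summit within 5 kb of an end gave 7 of 20 (18.1 to 56.7, against 14.7%). A summit within 1 kb at heights of at least the median gave 5 of 20 (11.2 to 46.9, against 5.68%). Within 50 kb 15 of 20 were counted (53.1 to 88.8, against 33.3%). The same 15 were counted within 100 kb (against 44.7%), a distance chosen after seeing the data. Other rules gave intervals that include the background. The gene body alone gave 5 of 20 (11.2 to 46.9, against 13.4%). Nearest gene gave 5 of 20 (11.2 to 46.9, against 13.2%). A summit within 500 bp gave 3 of 20 (5.24 to 36, against 9.04%). Heights of at least 19 gave 2 of 20 (2.79 to 30.1, against 6.05%). Within 200 kb, also chosen after seeing the data, it was 15 of 20 (53.1 to 88.8, against 57.7%). A summit within 1 kb of a start in the promoter table gave 4 of 19 (8.51 to 43.3, against 11.4%). With at least 50% of the interval inside 10 kb it was 7 of 20 (18.1 to 56.7, against 18.8%). The cofactor list thus stood above all genes by some of these rules and was not set apart by others. Kansl2, Marcksl1 and Gm42337, and below Idh3b, Hspe1, Zc3h10 and Rpl41, were named after their values were seen.

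Of 24 commonly cited Myc target genes, 11 had an interval within 10 kb (45.8%, Wilson interval 27.9 to 64.9), with the background of 19% below the interval. At heights of at least 19 the count was 3 of 24 (12.5%, 4.34 to 31), an interval that includes the 6.05% of all genes. Nop56, a core protein of box C/D nucleolar particles, had a summit of height 16 at 4 bp past its start, and a summit of height 13 in its neighbour Idh3b. Its partner Nop58 had a height of 13 at 82 bp past the start, the nucleolin gene Ncl a height of 13 at 287 bp outside the gene, and the ribosome biogenesis gene Wdr12 a height of 14 inside the gene. The cell cycle kinase gene Cdk4 had a summit of height 16 at 241 bp past its start. Nme1, a nucleoside diphosphate kinase gene, had a height of 19 at 32 bp before its start, and the translation initiation factor gene Eif4a1 had a height of 22. The chaperonin gene Hspd1 had a height of 17 in an interval shared with Hspe1. Pa2g4, a growth regulator, and the lactate dehydrogenase gene Ldha were counted through summits 9958 and 8738 bp outside, of heights 24 and 15, and the Pa2g4 summit lay in an interval over Zc3h10 and Rpl41. The remaining gene had a height of 11, the lowest of these. A summit lay within 1 kb of an end in 7 of the 24 genes (29.2%, Wilson interval 14.9 to 49.2), against 10.8% of all genes. No interval of a cofactor or target gene was called in the input.

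The shares were compared over wider distances. Within 50 kb the network reached 3 of 10, with Mycl added, at a background of 33.3%. Within 100 kb, 5 of 10 had an interval, at 44.7% of all genes, and within 200 kb 7 of 10, at 57.7%. Myc, Mycn and Mxd4 had none within 200 kb. Target genes had an interval within 50 kb in 14 of 24 cases (58.3%) and cofactor genes in 15 of 20 (75%), with Wilson intervals of 38.8 to 75.5 and 53.1 to 88.8. The median distances of 26.44 kb for the targets and 21.01 kb for the cofactors compare with 103 kb for the network. The lists were chosen by name with earlier results known and were not tested against each other.

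**Figure D4:**
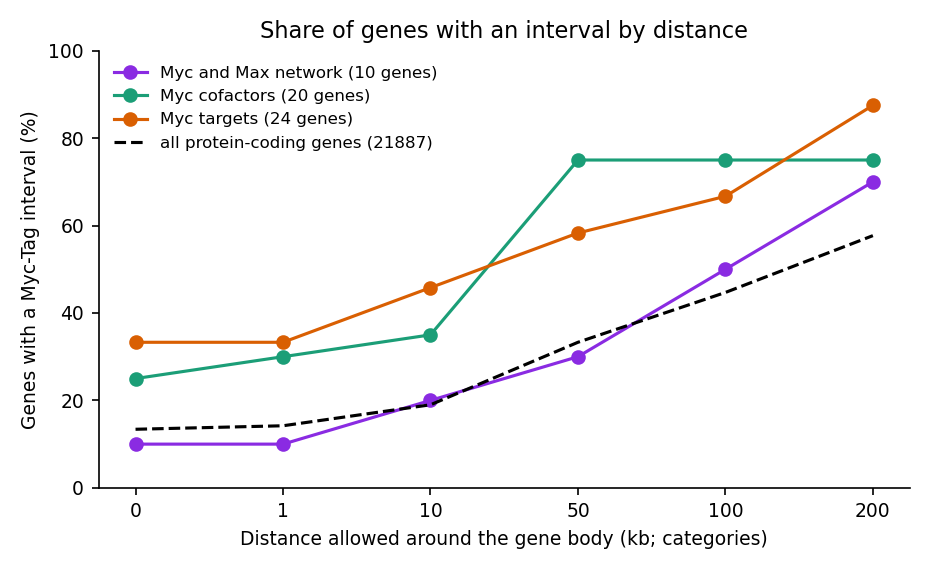
Percent of genes with a Myc-Tag interval against the distance allowed around the gene body (kb, spaced as categories) for the 10 network genes, 20 cofactor genes, 24 target genes and all 21887 protein-coding genes (dashed). The network line runs along the background, from 10% in the body to 70% within 200 kb, and the cofactor and target lines lie above it at each distance.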

How the data were processed

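The authors deposited 1 table of 5 browser tracks: summits and intervals per library, and active regions. The deposited value of a summit is a height, a score of unstated normalization. Active Motif performed the assay on an Illumina GA II, with MACS p-value used for peak calling. The submitters' processing notes list BWA and mm9, without a role, whereas a browser view in the paper is labelled mm10. Of 3477 Myc-Tag summits, 58.4% lay within 1 kb of a GRCm38 protein-coding gene end, and 6.93% after a shift of 100 kb, so coordinates were treated as mm10. The MACS version, threshold and calling control are not given in the sources used here.

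Summits were joined to the intervals that hold them. Summit positions were mostly multiples of 16 bp (3329 of 3477) and are not exact to the base. Interval starts are printed counted from 1. Gene bodies and promoter sequences came from RefSeq tables for GRCm38.p6. The gene table gives no strand, so starts came from the promoter table. An overlap of 1 bp was required. Shares have 95% Wilson intervals and densities exact 95% Poisson intervals.

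The 10 network genes, 4 further network genes, 20 cofactors and 24 targets were chosen with earlier results of these data known. Named were all network genes, genes sharing or nearest to their intervals, the 5 summits on each side of Myc, and up to 10 genes of each list by height. Alternatives changed the distance, the height minimum, the overlap, the use of the input and the gene assignment. Computations, tested on simulated data, ran in scipy 1.17.1, pandas 2.3.3 and numpy 2.4.6 under Python 3.11.15, and plots in matplotlib 3.10.9.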

Additional observations from a re-analysis of the deposited data

How the results depend on the processing

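Counts of genes were held unchanged within 1.5 times, the density around Myc within its Poisson interval, and the distance from Myc if equal. Of 49 recomputed values, 30 were unchanged by these limits and 19 moved. The density around Myc, 0.997 per Mb, was 0.499 with heights of at least 19, within its wide interval of 0.121 to 3.6. The network count of 2 of 10 became 1 for the gene body alone, 1 for 1 kb, 1 with heights at or above the median of 16, 1 for the nearest gene alone and 0 with heights of at least 19. It became 5 within 100 kb and 7 within 200 kb, 2 distances chosen after seeing the data. Over all protein-coding genes, 4168 became 7299 within 50 kb, 9778 within 100 kb, 12636 within 200 kb, 2332 at the median height and 1325 at a height of 19. The target count of 11 fell to 6 at the median height (25%, Wilson interval 12 to 44.9, with 10.7% of all genes) and 3 at a height of 19 (12.5%, Wilson interval 4.34 to 31, with 6.05% of all genes inside it), and the cofactor count of 7 became 15 within 50 kb and 2 at a height of 19. The count of network genes with a summit near an end rose from 0 to 1 of 10 at 5 kb, through Mxd3, where 14.7% of all genes had one. The distance from Myc became 895351 bp at either height minimum, since the Pvt1 summit was then left out. No paired analysis was possible because 1 library stood for each group, and no replicate could be left out. Without read totals, lower occupancy below the calling threshold cannot be seen.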
